A study of Mus musculus with 20 samples.

Results

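A set of 37 genes that hepatocytes transcribe was followed across expression arrays of mouse fat cells. The genes were taken by symbol from a list of plasma proteins and liver enzymes, and 35 of the 37 had a probe with that symbol among the 19505 genes measured. Apoc4 and Serpina3k were not analysed here. The series concerns Olfm2, which encodes the secreted glycoprotein olfactomedin 2, and its loss in fat cells. Total RNA came from adipocytes that, per the labels, were derived from mouse adipose tissue and differentiated in culture. There were 20 arrays in 4 groups of 5: Olfm2 knockout (KO) from the depot labelled g, wild type (WT) from g, KO from the depot labelled sc, and WT from sc. No group carries a further allele or agent in its labels, and the labels give no age, sex, diet or construct for the knockout. Sample titles carry a number that occurs once in each depot. For KO the titles pair g300 KO with sc300KO, g306 KO with sc306KO, g317 KO with sc317KO, g318 KO with sc318KO and g320 KO with sc320KO. For WT they pair g286 WT with sc286WT, g287 WT with sc287WT, g307 WT with sc307WT, g308 WT with sc308WT and g309 WT with sc309WT. Lists of 5 values follow this order. The labels do not say that a number is a mouse, nor that the cultures were grown apart, and p-values therefore speak of the scatter among these arrays, part of which may be technical.

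Values are log2 signals normalised by RMA, so a difference of 1 is a 2-fold difference in signal. The brightness of a probe also depends on its sequence, so levels were compared between arrays for the same gene. Negative control probes had medians of 4.45 to 4.84 on the 20 arrays. Signals near these medians are background, so a difference that starts there understates the change. The labelled cell type was present on every array: the mean of 19 measured mature adipocyte genes was 11.49 to 11.69 on g KO arrays, 11.01 to 11.37 on g WT arrays, 11.70 to 11.86 on sc KO arrays and 11.51 to 11.78 on sc WT arrays. Olfm2 itself was 3.36 to 3.72 on g KO and 4.08 to 4.60 on g WT arrays, and 2.67 to 3.58 on sc KO and 4.28 to 5.25 on sc WT arrays, with no overlap between genotypes in either depot. On every KO array, every g WT array, sc286WT and sc309WT it was below the negative control median of that array, which is background.

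Hepatocytes are the parenchymal cells of the liver and make most proteins of blood plasma: albumin and other carriers, the apolipoproteins of lipoprotein particles, the clotting factors, and the inhibitors that hold plasma proteases in check. They also hold the enzymes of the urea cycle, of amino acid breakdown and of glucose release. Many of these genes are switched on by the same small set of liver-enriched transcription factors, among them HNF1, HNF4A and members of the C/EBP family. Within the liver lobule some enzymes are made mainly near the portal vein and others mainly near the central vein, and in mice several hepatocyte genes differ between males and females.

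Upstream sequences of 4 listed genes are shown because the genes moved together from array to array. They cover the 250 bases before the annotated start, read 5′ to 3′ on the strand of the gene, from RefSeq's GRCm38.p6 table. Capitals mark the letters GTTAAT, the core of an HNF1 site, or TTGCNNAA, a C/EBP-like core, on either strand. Alb (chr5:90460620-90460869, plus strand) encodes albumin, Serpina1a (chr12:103863620-103863869, minus strand) and Serpina1e (chr12:103956898-103957147, minus strand) encode alpha-1 antitrypsins, and Fgb (chr3:83049864-83050113, minus strand) encodes the beta chain of fibrinogen.
Alb: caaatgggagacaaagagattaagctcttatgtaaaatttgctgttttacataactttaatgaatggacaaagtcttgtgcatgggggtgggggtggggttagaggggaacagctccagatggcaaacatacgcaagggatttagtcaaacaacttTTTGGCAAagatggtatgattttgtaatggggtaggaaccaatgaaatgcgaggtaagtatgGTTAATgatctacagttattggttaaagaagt
Serpina1a: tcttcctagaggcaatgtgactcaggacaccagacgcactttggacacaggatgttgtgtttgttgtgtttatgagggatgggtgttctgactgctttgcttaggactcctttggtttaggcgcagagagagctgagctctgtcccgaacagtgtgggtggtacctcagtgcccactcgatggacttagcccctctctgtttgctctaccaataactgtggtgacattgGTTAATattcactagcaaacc
Serpina1e: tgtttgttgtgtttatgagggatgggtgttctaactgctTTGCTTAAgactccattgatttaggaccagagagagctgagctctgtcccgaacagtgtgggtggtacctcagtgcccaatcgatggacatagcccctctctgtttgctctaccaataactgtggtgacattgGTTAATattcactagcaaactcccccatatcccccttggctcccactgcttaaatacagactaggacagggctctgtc
Fgb: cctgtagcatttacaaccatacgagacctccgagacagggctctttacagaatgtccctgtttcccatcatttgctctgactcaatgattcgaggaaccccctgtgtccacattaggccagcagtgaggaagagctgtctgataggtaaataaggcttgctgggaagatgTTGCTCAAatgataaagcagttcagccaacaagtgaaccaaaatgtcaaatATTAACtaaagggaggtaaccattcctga
The GTTAAT core began 32 bases before the start in Alb, 21 in Serpina1a and 78 in Serpina1e, and its reverse began 29 bases before the start in Fgb. Serpina1a and Serpina1e share an identical run of 63 bases that holds the core, which belongs to near-identical gene copies whose annotated starts differ.

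With chr18 left out for the listed genes, the promoter table held 29 of the 37. The shares over all promoters kept every chromosome. GTTAAT was present in the 250 bases of 10 of the 29 (34.5%), against 6.43% of all 32851 promoters of the same length. The 10 were Alb, Fga, Fgb, G6pc, Vtn and the Serpina1 copies a to e, which share their sequence. TTGCNNAA was present in 11 of 29 (37.9%, against 9.56% of all), CAAAGNNCA, an HNF4A-like core, in 5 of 29 (17.2%, against 5.49%), and TATAAA, the TATA box, in 6 of 29 (20.7%, against 12.4%). Both strands were searched and no match of these motifs was dropped for overlapping another. A match describes the letters of these windows and shows no binding.

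The listed genes were bright on 8 of the 20 arrays and dimmer on the other 12. The mean over the 35 genes was 10.07 on g317 KO, 9.51 on sc300KO, 9.30 on g306 KO, 8.95 on g320 KO, 8.48 on g308 WT, 7.43 on sc318KO, 7.41 on g318 KO and 7.37 on g286 WT. On the remaining 12 arrays it was 5.02 to 5.95, so no array lay between 5.95 and 7.37. Of the 8 arrays 6 were KO and 2 were WT, and 6 were g and 2 were sc. On these 8 no listed gene was at or below the array's negative control median, while on each of the others 6 to 16 of 35 were. Of the 35 genes 16 were above that median on all 20 arrays, among them Alb, by at least 1.66, and 19 were not. The 8 arrays were set apart by the mean of these same genes, so a separation gene by gene is partly built in and only describes them. In 32 of 35 genes every value on the 8 arrays was above every value on the other 12. The 3 exceptions were Vtn, Hpx and Serpina1e, with gaps of -0.07, -0.18 and 0.00. The 8 arrays are described here because they stand apart, and they are not a group of the study. For the listed genes, the comparisons of the 4 groups and the slopes on Alb in limma are also given without them. The averages by number are not, since every KO number has at least 1 of these arrays. Permutation tests, fits with Alb as a covariate and results of other gene lists are given with all arrays only. In bulk RNA fewer cells of a type and less RNA per cell cannot be told apart.

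**Figure D1:**
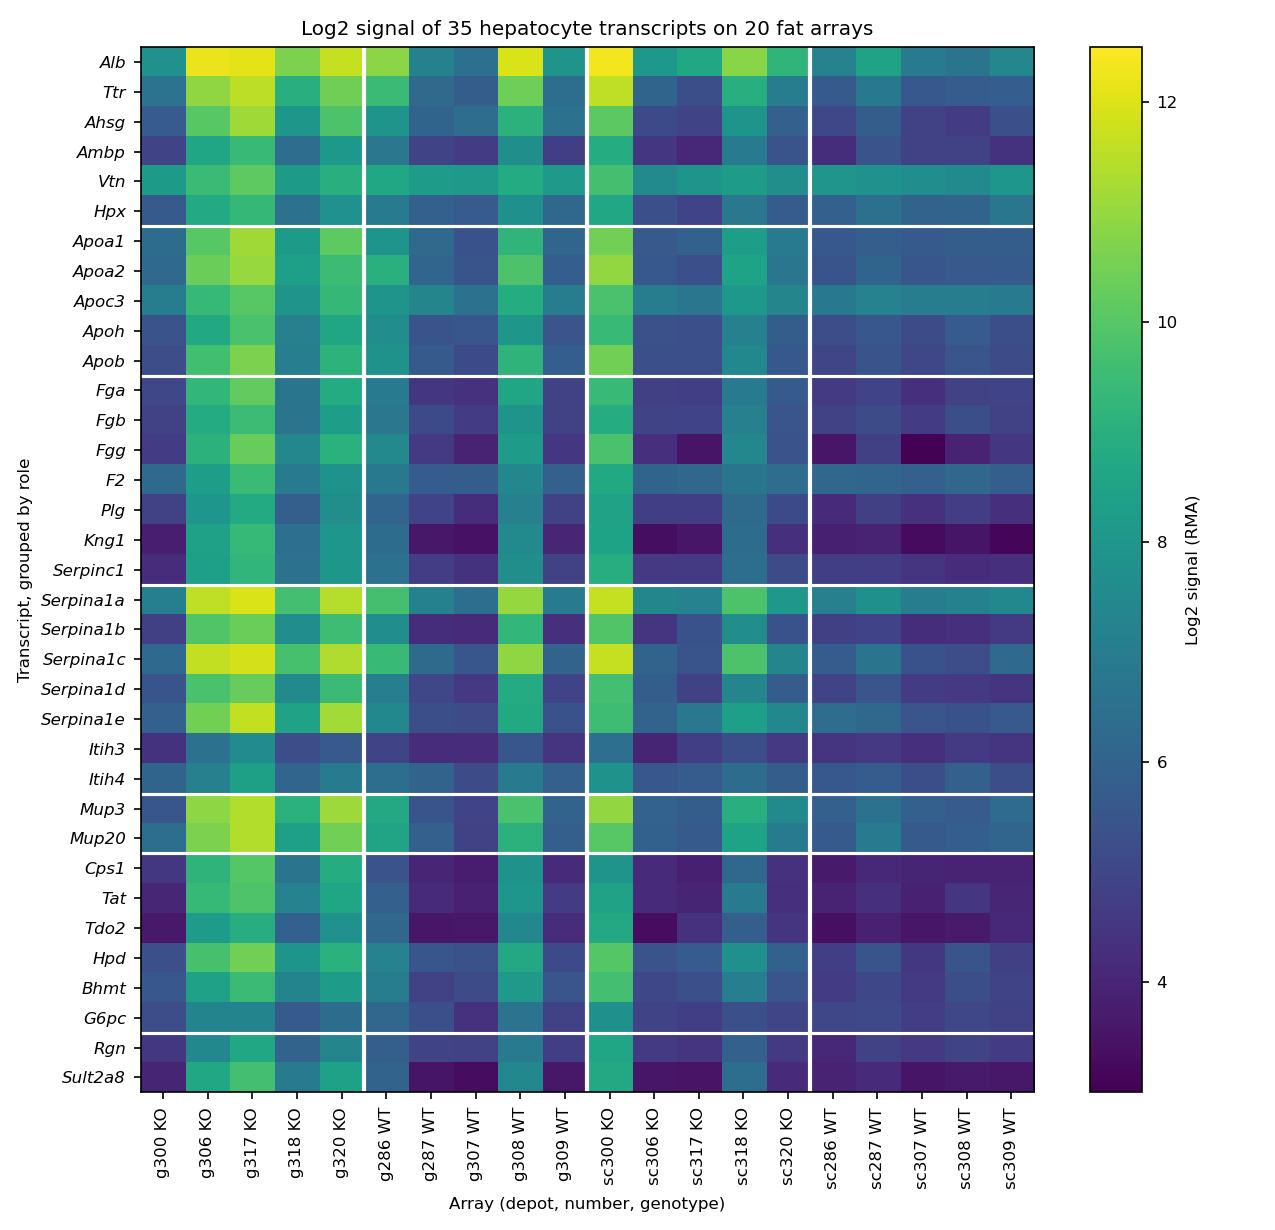
Log2 RMA signal of the 35 measured hepatocyte transcripts (rows, grouped by role and divided by white lines) on the 20 arrays (columns, g KO, g WT, sc KO and sc WT from left to right). Nearly every row brightens on the same 8 columns, and g317 KO was the brightest array for 31 of 35 genes; brightness is comparable along a row and not between rows.

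The brightest arrays were nearly the same for every gene, while the order of the dim ones varied between genes. Array g317 KO had the highest value in 31 of 35 genes and sc300KO in the other 4, and g306 KO held rank 2, 3 or 4 in all 35 genes. The range from the dimmest to the brightest array had a median of 5.72 over the genes and ran from 2.62 for Vtn to 7.23 for Fgg.

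Carrier and binding proteins opened the list. Alb, the main protein of plasma, was 7.81, 12.21, 12.12, 10.62 and 11.67 on g KO arrays, against 10.84, 7.17, 6.48, 11.96 and 7.90 on g WT arrays. In sc it was 12.35, 8.06, 8.65, 10.83 and 9.22 on KO arrays, against 7.23, 8.48, 6.94, 6.65 and 7.39 on WT arrays. Genotypes overlapped in both depots, with g300 KO low among g KO arrays and g286 WT and g308 WT high among g WT arrays. Ttr, which carries thyroid hormone and retinol-binding protein, had 6.61 to 11.55 on g KO and 5.82 to 10.41 on g WT arrays, and 5.30 to 11.59 on sc KO and 5.62 to 6.85 on sc WT arrays. Ahsg (fetuin A) and Ambp (the precursor of alpha-1 microglobulin and bikunin) followed the same arrays, with peaks of 11.15 and 9.39 on g317 KO. Vtn, an adhesive plasma protein, and the heme carrier Hpx were less sharply divided. Vtn was 7.52 to 8.26 on the 12 dim arrays, and on every array it was at least 2.94 above the negative control median of that array, with a peak of 10.14 on g317 KO. Hpx was 5.92 to 6.73 on sc WT arrays, where sc309WT was above g318 KO at 6.55.

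The apolipoproteins package and steer plasma lipid. Apoa1 (the main protein of high-density lipoprotein) was 6.37, 10.04, 11.16, 8.16 and 10.15 on g KO arrays and 7.91, 6.28, 5.40, 9.21 and 6.09 on g WT arrays. In sc it was 10.49, 5.66, 5.95, 8.30 and 6.94 on KO arrays and 5.63, 5.88, 5.68, 5.82 and 5.79 on WT arrays. The WT sc values lay close together, whereas the KO sc values included the second brightest array of the series and a value inside the WT range. Apoa2 peaked at 11.04 and Apob, the backbone of very-low-density lipoprotein, at 10.62, both on g317 KO. Apoc3, an inhibitor of lipoprotein lipase, had the narrowest range of the 5 measured apolipoprotein genes, 6.57 to 10.03, and Apoh (beta-2 glycoprotein I) ran from 5.20 to 9.78.

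The clotting genes ranged from wide to narrow gaps between the 8 bright and the 12 dim arrays, 2.08 for Kng1, 1.96 for Fgg and 0.29 for F2. Fgg, the gamma chain of fibrinogen, was 4.69, 9.12, 10.29, 7.39 and 9.07 on g KO arrays and 7.49, 4.62, 3.93, 8.26 and 4.52 on g WT arrays. In sc it was 9.78, 4.31, 3.53, 7.39 and 5.43 on KO arrays, against 3.59, 4.79, 3.07, 3.95 and 4.52 on WT arrays. On several dim arrays it was thus below the negative control medians. The other fibrinogen chains, Fga and Fgb, peaked at 10.23 and 9.52. Kng1 (kininogen, a cofactor of contact activation) ran from 3.16 to 9.37, Plg (plasminogen, the precursor of the clot-dissolving protease) from 4.17 to 8.80 and Serpinc1 (antithrombin) from 4.20 to 9.24. F2, prothrombin, had a narrower range of 5.75 to 9.49.

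Among the protease inhibitors Serpina1e differed most between genotypes in g. It was 5.91, 10.49, 11.64, 8.47 and 11.20 on g KO arrays, against 7.43, 5.29, 5.20, 8.78 and 5.40 on g WT arrays. In sc it was 9.56, 6.02, 6.80, 8.38 and 7.43 on KO arrays and 6.40, 6.16, 5.50, 5.41 and 5.64 on WT arrays. The groups overlapped in both depots, with g300 KO below 2 of the g WT arrays and sc306KO below 2 of the sc WT arrays. Serpina1a to Serpina1e are copies of the alpha-1 antitrypsin gene, whose product inhibits neutrophil elastase. Their probes may bind each other's transcripts, so the values of single copies are uncertain. Serpina1c ran from 5.23 to 11.90, Serpina1a from 6.45 to 11.97, Serpina1b from 4.15 to 10.36 and Serpina1d from 4.45 to 10.28. Itih3 and Itih4, heavy chains of inter-alpha-trypsin inhibitors, had ranges of 3.98 to 7.60 and 5.19 to 8.39.

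The major urinary proteins are pheromone carriers that the mouse liver secretes for excretion in urine. Mup3 was 5.55, 10.87, 11.42, 9.06 and 11.10 on g KO arrays and 8.74, 5.46, 4.90, 9.78 and 6.01 on g WT arrays. In sc it was 10.96, 6.0, 5.82, 8.97 and 7.51 on KO arrays, against 5.90, 6.58, 5.93, 5.73 and 6.33 on WT arrays. Mup20, the pheromone darcin of male urine, ran from 4.82 on g307 WT to 11.41 on g317 KO. The same arrays stood out as for Alb. These genes also have near-identical copies, so their single values carry the same uncertainty.

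Enzymes that stay inside the hepatocyte showed the pattern as well as the secreted proteins did. Cps1, the entry enzyme of the urea cycle, was 4.54, 9.18, 10.01, 6.66 and 8.90 on g KO arrays and 5.43, 4.01, 3.76, 7.86 and 4.13 on g WT arrays. In sc it was 7.92, 4.18, 3.85, 6.18 and 4.34 on KO arrays and 3.67, 4.10, 3.97, 3.90 and 3.91 on WT arrays. It was at or below the negative control medians on every sc WT array. Tat (tyrosine aminotransferase) ran from 3.87 to 9.88, Tdo2 (tryptophan dioxygenase) from 3.33 to 8.91 and Hpd, the next enzyme of tyrosine breakdown after Tat, from 4.53 to 10.49. Bhmt, which remethylates homocysteine with betaine, peaked on sc300KO at 9.65, and so did G6pc, the phosphatase that releases free glucose, at 7.76. Rgn (regucalcin) ran from 4.04 to 8.69, and Sult2a8, a sulfotransferase of mouse liver, from 3.30 to 9.65.

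Whether loss of Olfm2 shifted these transcripts was asked in each depot, and called means an adjusted p under 0.05 in limma with Benjamini-Hochberg adjustment over all genes. In g adipocytes KO exceeded WT on average in 35 of 35 genes, with a median difference of 1.91, while the median over all genes was 0.02. Serpina1e rose by 3.13 (SE 0.92, 9.54 ± 2.36 in KO and 6.42 ± 1.61 in WT, SD, n = 5; limma adjusted p = 0.0305). It was the 1 gene of 35 called higher, while 5.01% of all 19505 genes were called higher in this comparison. At an unadjusted p under 0.05 there were 19 of 35, beside 4702 of all 19505 genes. The next smallest adjusted p were 0.059 for Cps1 (difference 2.82, SE 0.94) and 0.085 for Mup20 (2.61, SE 0.95). Alb differed by 2.02 (10.89 ± 1.83 in KO and 8.87 ± 2.40 in WT, SD, n = 5), with an adjusted p of 0.235 in limma and an exact permutation p of 0.167, two-sided.

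The g call depended on single arrays. Without g300 KO, the 1 dim KO array of this depot, 16 of 35 genes were called, 6 without g308 WT and 3 without sc300KO, which enters through the shared estimate of the spread. Of all 19505 genes 961 were called higher without g300 KO, 947 without g308 WT and 993 without sc300KO, against 977 with every array. Without g306 KO, g317 KO, g320 KO, g287 WT, g307 WT or g309 WT it was 0. Over 30 settings of the processing and left-out arrays the adjusted p of Serpina1e in limma was 0.00247 to 0.098. The fit without the 8 bright arrays is not among these 30. Without the 8 bright arrays 1 g KO array is left, whose spread is taken from the other groups, and the median difference was 0.22.

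In sc adipocytes the median difference of KO minus WT was 1.52 and 0 of 35 genes were called in limma, with 2 at an unadjusted p under 0.05, Alb and Hpd, beside 2017 of all 19505 genes. Of all genes 0.677% were called. Alb had the largest difference, 2.48 (9.82 ± 1.75 in KO and 7.34 ± 0.70 in WT, SD, n = 5; limma adjusted p = 0.359), and 1 of 5 WT arrays, sc287WT at 8.48, was above the lowest KO array at 8.06. Tested alone by an exact two-sided permutation, Alb gave p = 0.0159, or 0.0238 adjusted over the 3 such tests made. Hpx had the smallest difference of 0.06 (SE 0.66). In the mean over the listed genes sc300KO and sc318KO were at 9.51 and 7.43, and the other 3 KO arrays at 5.27 to 5.95, against 5.02 to 5.64 on WT arrays. Without the 8 bright arrays the median was 0.20 and 0 of 35 genes were called in limma, while 155 of all 19505 genes were. At an unadjusted p under 0.05 there were then 7 of 35, beside 2456 of all genes.

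**Figure D2:**
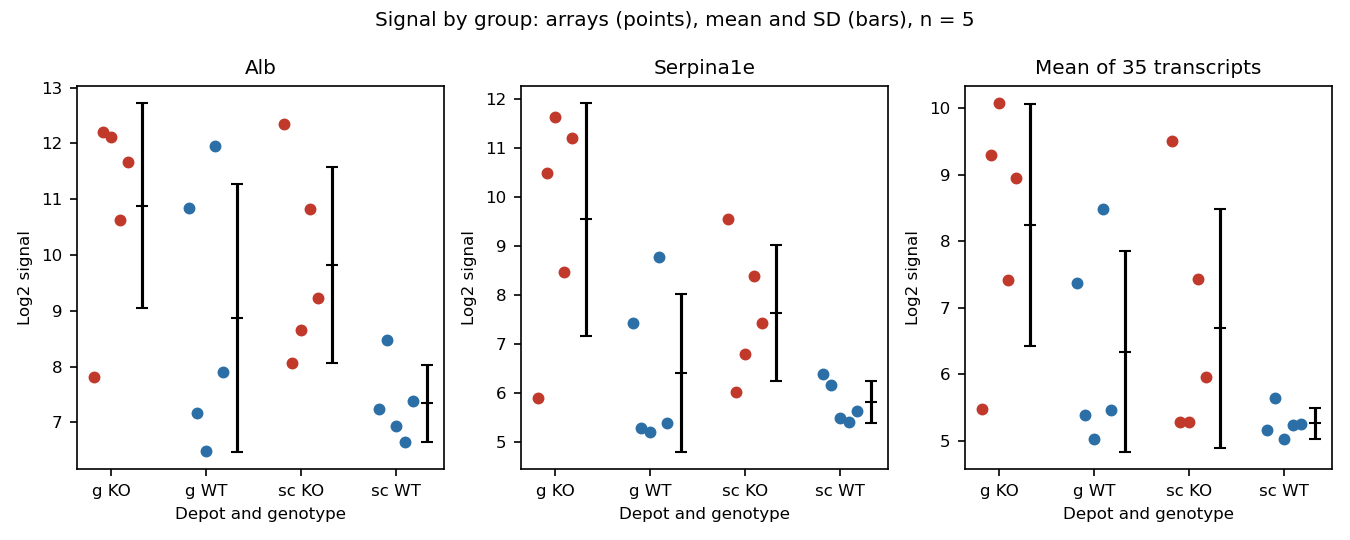
Log2 signal of Alb, of Serpina1e and of the mean over the 35 transcripts on each array (points, KO red and WT blue), with mean and SD of the 5 arrays of a group (bars). The g KO arrays other than g300 KO are high, 2 of 5 g WT and 2 of 5 sc KO arrays are high in the mean of 35, and the sc WT arrays lie at 5.02 to 5.64 in that mean.

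The difference between depots of the KO effect was not called for any of 35 genes in limma (0 also at an unadjusted p under 0.05; 0.0769% of all genes were called). The largest was that of Cps1, 1.43 (SE 1.33, adjusted p = 0.687). With arrays weighted by their fit the median of this difference was -0.07 instead of 0.41, so its direction is not settled. Without the 8 bright arrays the median was -0.02, with 17 of 35 genes above 0, and 0 were called in limma, with 1 at an unadjusted p under 0.05.

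The numbers in the titles were then used to average the g and sc arrays of each number, which gives 5 KO and 5 WT values. The mean over the 35 genes was 7.49, 7.29, 7.67, 7.42 and 7.45 for the 5 KO numbers, against 6.26, 5.51, 5.02, 6.85 and 5.36 for the 5 WT numbers. Every KO average was above every WT average in 30 of 35 genes, as it was for 4.06% of all genes. KO averages were close together (7.47 ± 0.14, against 5.80 ± 0.74 for WT, SD, n = 5), although their arrays were not: sc300KO was bright and g300 KO dim, g306 KO, g317 KO and g320 KO were bright and their sc arrays dim, and g318 KO and sc318KO were both between. With these averages limma called 32 of 35 genes higher in KO, where 3.86% of all genes were called higher, and the median difference was 1.80. Alb rose by 2.25 (SE 0.40, 10.35 ± 0.26 in KO and 8.10 ± 1.07 in WT, SD, n = 5; adjusted p = 0.00563 in limma). Its exact permutation p, two-sided, was 0.00794, the smallest that 5 against 5 allow, or 0.0238 adjusted over the 3 such tests. Ahsg rose by 1.72 (SE 0.20, adjusted p = 0.000672 in limma), Cps1 by 2.10, Fgg by 2.23, Serpina1e by 2.47 and Serpina1c by 2.38. G6pc (0.76, adjusted p = 0.0796), Itih4 (0.76, adjusted p = 0.0571) and Vtn (0.51, adjusted p = 0.0645) were not called.

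This result rests on averaging by number, which the labels do not describe. When the same mean difference was taken from the 4 groups with no averaging by number, an alternative chosen after seeing the data, limma called 2 of 35 genes, Serpina1e (adjusted p = 0.0175) and Serpina1d (adjusted p = 0.0485), beside 4.28% of all genes called higher. The differences are the same in both fits and the SE is larger, 0.72 instead of 0.40 for Alb. With the number as a random block in the fit of 4 groups, also chosen after seeing the data, limma called 1 of 35, Serpina1e (adjusted p = 0.0292), beside 3.68% of all genes called higher. Within numbers the departures of the 35 genes from their group means correlated with r from -0.73 (g300 KO with sc300KO) to 0.22 over the 5 KO numbers and from -0.51 (g287 WT with sc287WT) to 0.40 over the 5 WT numbers. Such a correlation across genes is a description, since genes are not independent replicates.

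**Figure D3:**
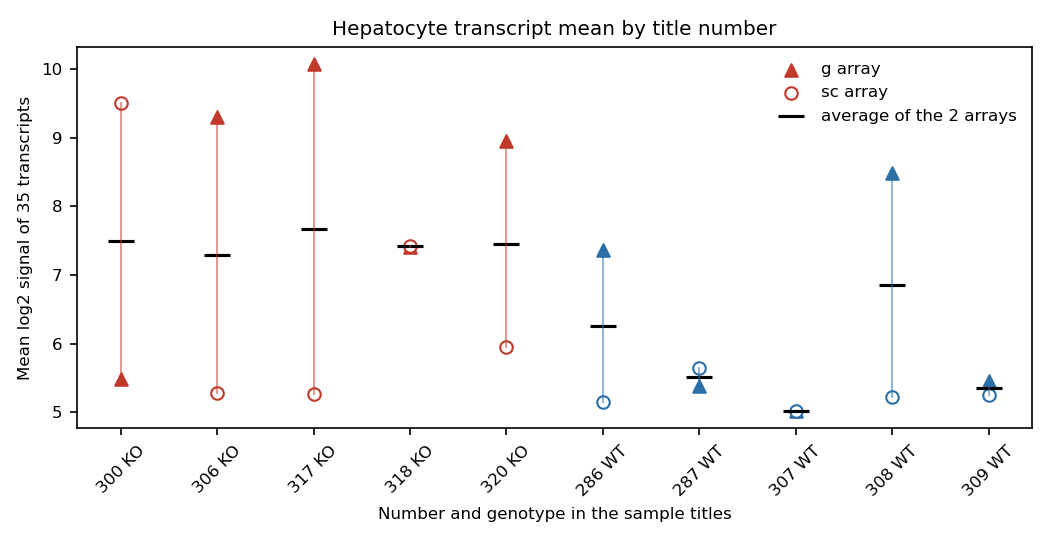
Mean log2 signal of the 35 transcripts on the g array (triangle) and the sc array (open circle) of each title number, KO in red on the left and WT in blue on the right, with the average of both arrays (black bar). KO averages lie between 7.29 and 7.67 although the arrays behind them lie between 5.27 and 10.07, and WT averages lie between 5.02 and 6.85.

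Depots were also compared within each genotype. In KO adipocytes g minus sc had a median of 1.54 and 0 of 35 genes were called in limma, while 4.13% of all genes were. At an unadjusted p under 0.05 there were 5 of 35, beside 3339 of all 19505 genes. Cps1 had the smallest p (difference 2.56, SE 0.94, 7.86 ± 2.23 in g and 5.29 ± 1.73 in sc, SD, n = 5; adjusted p = 0.148). Without g300 KO 3 of 35 genes were called and without sc300KO 1, beside 729 and 680 of all 19505 genes. In WT adipocytes the median was 1.13, again with 0 of 35 called, while 17.8% of all genes were called. At an unadjusted p under 0.05 there was 1 of 35, Ahsg, beside 5836 of all 19505 genes. Ahsg differed by 2.09 (SE 0.95, adjusted p = 0.144). Without the 8 bright arrays the medians were -0.03 in KO, where 1 g array is left, and 0.08 in WT. In WT 1 of 35 genes was then called, beside 2546 of all 19505 genes.

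How far each transcript followed albumin from array to array was measured as its slope on the log2 signal of Alb within the 4 groups, in a limma fit over the other 19504 genes. All 34 listed genes other than Alb had a positive slope that passed, where 1.19% of all genes did, and the median was 0.84 against 0.00 for all genes. Slopes are in log2 per log2, so 1 means that a gene changed by the same factor as Alb. The steepest were those of Serpina1c (1.17, SE 0.07, adjusted p = 1.44e-09), Serpina1b (1.09), Mup3 (1.07), Ttr (1.04, SE 0.07) and Fgg (1.04). The shallowest were those of Vtn (0.27, SE 0.055, adjusted p = 0.00803), Itih4 (0.33), Itih3 (0.38), F2 (0.44), G6pc (0.44) and Apoc3 (0.50). By role the median slope was 0.78 for 5 carriers, 0.82 for 5 apolipoprotein genes, 0.80 for 7 clotting genes, 0.88 for 7 inhibitors, 0.99 for the 2 urinary proteins, 0.84 for 6 enzymes of amino acid and glucose metabolism and 0.80 for Sult2a8 and Rgn. Genes with signals near background on dim arrays cannot fall further there, which bounds their slope.

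The slopes were also called in each depot taken alone: 31 of 34 passed on the 10 g arrays and 31 of 34 on the 10 sc arrays, and 34 of 34 with any single array left out. Of all 19504 genes 119 had a called positive slope on the g arrays and 91 on the sc arrays. With a single array left out 170 to 254 of all genes did. Without the 8 bright arrays 0 of 34 slopes were called in limma, as were 0 of all genes, while all 34 stayed positive (0.02 to 0.74, median 0.32) and 17 of 34 had an unadjusted p under 0.05, beside 541 of all 19504 genes. These 12 dim arrays were set apart by the values of the listed genes themselves. With Alb as a covariate the KO effect of Serpina1e in g was 1.45 (SE 0.40, adjusted p = 0.0364 in limma), 1 of 34 genes called higher where 2.65% of all genes were. With it the other 33 listed genes were not called in g, and in sc all 34 had a negative difference with 0 called. Alb itself had the largest difference of the listed genes in sc, 2.48, so this shared sign follows in part from its choice as covariate.

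**Figure D4:**
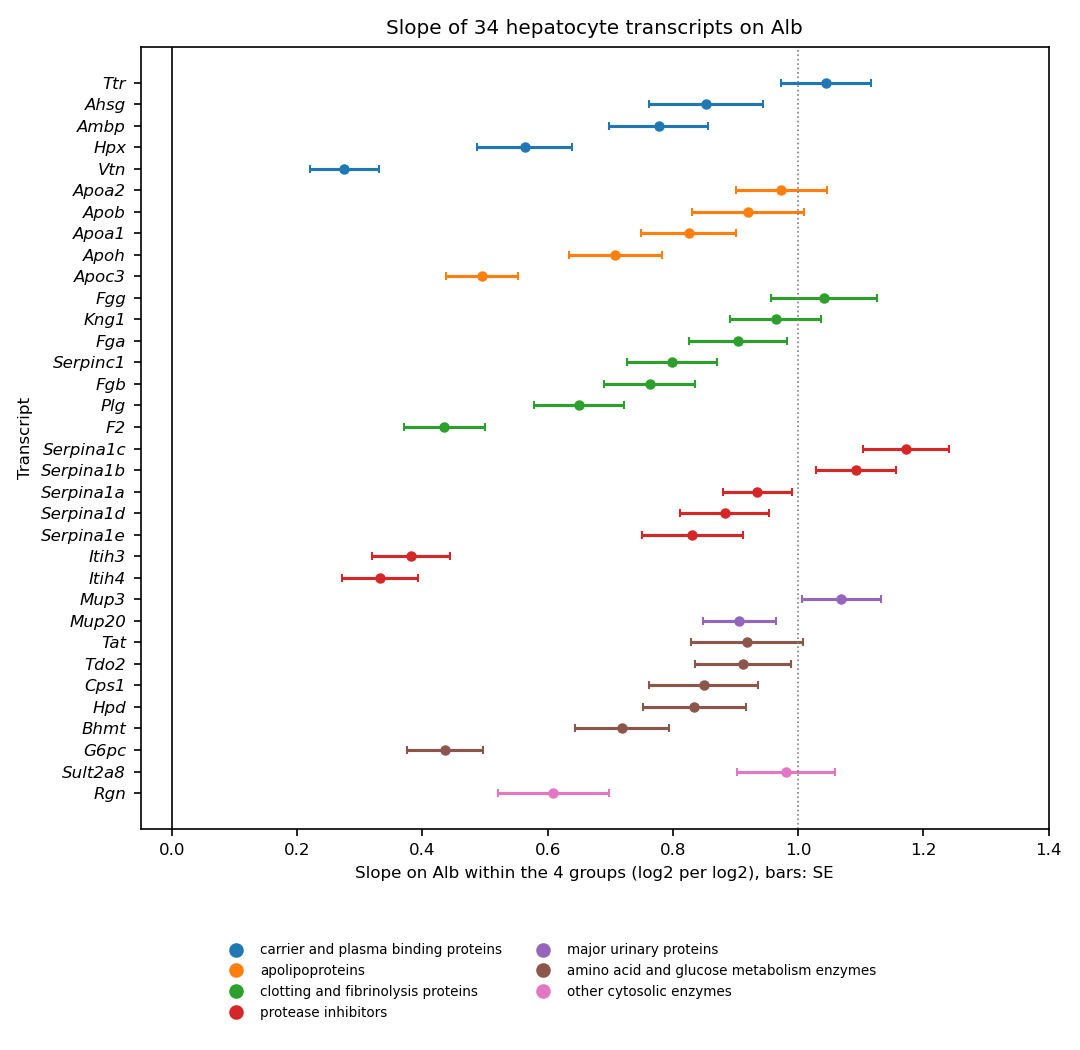
Slope of each of 34 transcripts on Alb within the 4 groups (points, log2 per log2) with its SE (bars), coloured by role; the dotted line marks a slope of 1. Every slope is positive, from 0.27 for Vtn to 1.17 for Serpina1c.

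Arrays with nearly the same Alb signal still differed in which transcripts were strongest; these pairs were chosen after the values were seen and have no test. Array g306 KO and sc300KO had 12.21 and 12.35 for Alb. Cps1 was 9.18 on g306 KO and 7.92 on sc300KO, Tat 9.37 and 8.49, Serpina1e 10.49 and 9.56, whereas Bhmt was 8.44 and 9.65 and Rgn 7.42 and 8.59. In the liver lobule Cps1 is made mainly near the portal vein, and Rgn is a marker of cells near the central vein. Of the 35 listed genes 8 were higher on g306 KO than on sc300KO. A called slope on Alb was seen in 4 of 8 periportal and 5 of 12 pericentral genes, and the pericentral Cyp2e1 was 7.62 or more on every array. Of the 8 periportal genes measured, with Cps1, 6 were higher on g306 KO, and of the 12 pericentral genes, with Rgn, 0 were. Among those named after their values were seen, periportal Cyp2f2 was 7.63 and 6.76 and Hal 6.63 and 5.62, but Arg1 was 6.99 and 6.98, Gldc 5.69 and 5.76 and Pck1, which fat cells also transcribe, 9.79 and 10.95. The pericentral Cyp1a2 was 6.97 and 8.44, Gulo 5.85 and 8.17 and the glutamate transporter Slc1a2 3.82 and 7.40. Array g317 KO, with 12.12 for Alb, was high in both kinds, with 10.01 for Cps1, 8.69 for Rgn and 9.13 for Cyp1a2. Serpina1e was 11.20 on g320 KO and 8.78 on g308 WT, a difference of 2.42, although Alb was 11.67 and 11.96, and Mup20 differed by 1.38 and Mup3 by 1.32 in the same direction. The 3 arrays with Alb from 10.62 to 10.84, g318 KO, sc318KO and g286 WT, had a median difference over the 35 genes of -0.01 to 0.02 between any 2 of them, with Tat 1.30 higher on g318 KO than on g286 WT.

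Genes outside the list followed Alb too. The 10 with the steepest slopes that were called were the bile acid transporter Slc10a1 (1.08, SE 0.08), the fatty acid binding protein Fabp1 (1.035), the protease inhibitor Pzp (0.99), the serum amyloid gene Saa4 (0.975), Mup21 (0.97), the amino acid transporter Slc38a4 (0.965, SE 0.16), the inhibitor Mug1 (0.96), the histidine-rich glycoprotein Hrg (0.95) and the cytochromes P450 Cyp2d26 (0.89) and Cyp2j5 (0.87). Slc10a1, which takes up bile acids across the hepatocyte membrane, was 3.37, 8.34, 9.31, 6.30 and 7.88 on g KO arrays and 6.13, 3.37, 2.87, 7.60 and 3.29 on g WT arrays. On sc arrays it was 8.71, 2.83, 2.95, 5.96 and 3.66 in KO and 2.86, 3.61, 2.88, 2.94 and 3.08 in WT. It thus marked the same 8 arrays. Slc38a4 was also bright on sc286WT at 9.04, an array with low Alb (7.23) and a skeletal muscle mean of 10.97.

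Of 102 other hepatocyte genes measured 60 had a called positive slope, 0 a negative one, and the median was 0.26; Slc10a1, Pzp and Mug1 were steepest. Of 17 transcription factors of hepatocytes 5 passed, with a median of 0.10, led by Hnf4a (0.23, 5.03 to 6.89), Nr1h4 (0.23, the bile acid receptor FXR) and Nr1i3 (0.22, the receptor CAR). Among 8 periportal genes 4 passed (Cps1, 0.85; Arg1, 0.52; Hsd17b13, 0.46) and among 12 pericentral genes 5 (Cyp1a2, 0.64; Rgn, 0.61; Cyp7a1, 0.51). Of 16 male-biased liver genes 6 passed, with Mup20 (0.91), Ugt2b1 (0.70) and Slco1a1 (0.40) steepest, and of 16 female-biased ones 2, Cyp2a4 (0.31) and Cyp2c69 (0.18). Cyp2b9, also female-biased, was 8.46 on sc300KO, 6.84 on g308 WT and 4.09 to 5.96 elsewhere, with a slope of 0.37 that was not called. The Y-linked Uty was 7.26 to 8.08 on the 20 arrays. Of 6 fetal liver genes 0 passed (median 0.03), and Afp stayed at 3.86 to 4.64.

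Some plasma protein genes had slopes on Alb near 0 and were bright on every array. Hp, haptoglobin, was 11.45 to 12.62 (slope -0.02), Trf, transferrin, 11.81 to 12.31 (0.03), Rbp4, which carries retinol, 9.42 to 11.58 (0.10) and Cp, ceruloplasmin, 8.56 to 9.89 (0.08), and none of these slopes was called. These 4 were named after their values were seen. They are known to be transcribed in fat as well as in liver.

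Marker lists of other liver cells held no called slope on Alb. Of 8 Kupffer cell genes (median slope 0.04), 10 genes of liver sinusoidal endothelium (0.03), 11 of hepatic stellate cells (0.00) and 8 of bile duct (0.06), 0 had a called slope in limma, and the largest in size were those of C6 (0.13), Dnase1l3 (-0.12), Rgs5 (0.08) and Pkhd1 (0.16). The Kupffer list had array means of 6.16 to 6.89 in g KO, 6.69 to 7.03 in g WT, 5.90 to 6.58 in sc KO and 6.14 to 6.63 in sc WT arrays. The defining Kupffer gene Clec4f was 3.93 to 6.13 on the 20 arrays, with its highest value on g317 KO and 5.06 or less on the other 19. The sinusoidal gene Stab2 was at or below 4.27 on the 8 arrays bright in hepatocyte genes. It was 6.13 on sc317KO, 5.39 on sc320KO, 5.34 on sc286WT and 3.19 to 3.73 on the remaining dim arrays. Clec4g, of the same list, was highest on g317 KO (5.71), g320 KO (5.23), g308 WT (5.19) and sc300KO (5.13). It was 4.12 to 4.95 on the other bright arrays and 4.27 to 4.96 on the dim ones, with a slope of 0.10 that was not called.

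Lists of other organs were checked in the same way. Of 17 intestinal epithelium genes 2 passed, Apoa4 (0.38) and Fabp2 (0.26), both also transcribed in mouse liver, and the array means ran from 4.68 to 5.19. Of 12 kidney tubule genes and 15 exocrine pancreas genes 0 passed, with medians of 0.01 and -0.01. Of 19 mature adipocyte genes 0 passed (median 0.01), and their slopes ran from -0.01 to 0.02. Of 14 skeletal muscle genes (median -0.15) and 11 lymphocyte genes (median -0.17) 0 passed. Skeletal muscle means above 7 were seen on sc286WT (10.97), sc307WT (8.94), sc317KO (7.68) and sc320KO (7.11), and lymphocyte means above 8 on sc317KO, sc320KO and sc286WT. None of these arrays was among the 8 bright in hepatocyte genes. Of 2 red blood cell genes 0 passed.

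**Figure D5:**
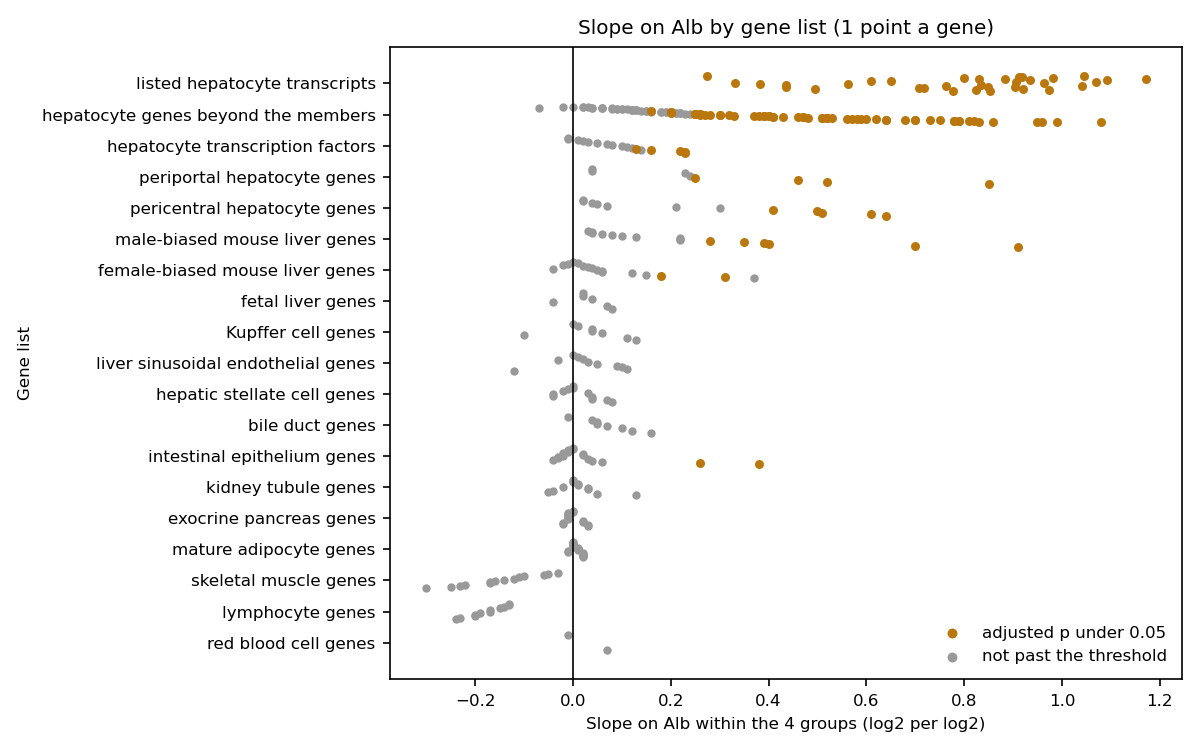
Slope on Alb within the 4 groups for each gene (points) of the listed transcripts and of 18 other lists, with slopes at an adjusted p under 0.05 in orange. Slopes reach 1.08 among other hepatocyte genes, stay at 0.23 or below for hepatocyte transcription factors, and none is called for adipocyte, Kupffer, stellate, endothelial, bile duct, kidney, pancreas, muscle or lymphocyte genes.

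By genotype over the number averages, 65 of the 102 other hepatocyte genes were called higher in KO and 3 lower, with a median of 0.70. Of all 19505 genes 1612 were called, 753 (3.86%) of them higher and the rest lower. Of 19 mature adipocyte genes 7 were called higher (median 0.20), and of 8 Kupffer genes 3 were called lower (median -0.17). In the g comparison itself 8 of the 102 were called higher and 1 lower (median 0.84). There 2200 of all 19505 genes were called, 977 of them higher and the rest lower. In sc 1 of the 102 was called (median 0.54), where 0.677% of all genes were. Of the 19 mature adipocyte genes 10 were called higher in g KO (median 0.36), where 5.01% of all genes were. The part of the hepatocyte-bright arrays in other KO effects was not tested here.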

How the data were processed

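Expression was measured on 20 single-colour Affymetrix arrays of total RNA. The authors deposited 1 log2 signal for each probe and array. RMA, a method that corrects background, normalizes quantiles and summarises probes, is named per the submitters' processing notes, as is limma, with no version or genome build given in the sources used here. Precision is limited by 5 arrays per group. Of 28846 probes 6640 controls and 2634 without a symbol were left out. For 55 genes with several probes, none of them listed here, the probe with the highest mean was kept, which gave 19505 genes.

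Samples were grouped by the genotype and tissue labels. Models were fitted with limma 3.58.1 in R 4.3.3 to all genes: 4 group means (16 residual degrees of freedom), g and sc averaged by title number (8), and group means with Alb as a slope (15). Adjusted p are Benjamini-Hochberg values over all genes, with a threshold of 0.05. Alb was also tested by exact permutation of arrays, two-sided. The scripts were tested on simulated data. Alternatives covered centring, quantile normalization, a filter on dim genes, all probes with a symbol, and variance and array weights. They also covered Alb or Apoa1 as covariate, single depots, a block on the title number (statmod 1.5.0) and leaving out arrays.

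The members and marker lists were chosen with earlier results of these data known, and partly taken from that earlier work, so they give no independent support. Genes outside the lists were named as the 10 steepest called slopes, and from each list as the 3 largest slopes in size; other named genes were chosen after their values were seen, as were the promoter motifs. The series' design text counts arrays under another gene name for the sc depot; the sample labels were used.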

Additional observations from a re-analysis of the deposited data

Results flagged for a closer look

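In 3 of 144 groups of 5 arrays tested (the 35 genes and their mean, in 4 groups each), 1 array lay far from the other 4, by more than 0.71 of the group's whole range; chance marks about 1 in 20 groups. Ttr, the thyroid hormone carrier transthyretin, was 6.85 on sc287WT and 5.62 to 5.85 on the other sc WT arrays. F2, prothrombin, was 8.78 on sc300KO and 6.06 to 6.69 on the other sc KO arrays. G6pc, the glucose-releasing phosphatase, was 7.76 on sc300KO and 4.78 to 5.32 on the other sc KO arrays. Array sc300KO was the brightest sc array in the mean of the 35 genes, at 9.51.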

How the results depend on the processing

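Among results for whole comparisons 197 kept their count within 1.5 times or their value within the spread, and 22 moved. In g, KO minus WT had 1 of 35 genes called. Without the 8 bright arrays (chosen after seeing the data) 1 g KO array is left, so no count is given here. The count was 0 with a trended and robust variance, with array weights and with the arrays of that depot alone, and 0 to 16 with 1 array left out. For g minus sc in KO it was 2 with Alb as a covariate and 0 to 3 with 1 array left out, and in WT 1 without the 8 bright arrays. Over both depots the 32 calls became 20 of the 20 genes that passed a filter on dim genes, where 7.31% of all genes passing it were called higher. That filter used the mean over all 20 arrays, which the bright arrays raise, so its 20 of 20 is partly built in. The calls became 0 with Alb as a covariate, 2 without averaging by number and 30 to 34 with 1 number left out. The 34 slopes became 0 without the 8 bright arrays. The causes of these changes were not tested. Counts over all genes also moved: with Alb as a covariate 2 genes instead of 1612 were called over both depots. Averaged by number, Alb was 10.08 to 10.73 in KO and 6.71 to 9.30 in WT, with no overlap. Genotype and Alb are thus hardly separable in that fit, so neither this count nor the 0 of the listed genes shows which differences go with Alb.

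Single-gene results kept direction and side of the threshold in 3407 cases, gained a call in 30, lost one in 113 and turned sign in 48. With Alb as a covariate KO minus WT turned negative in g for Ttr -0.088, Hpx -0.005, Apoa2 -0.10, Apob -0.26, over both depots for Ttr -0.049, Apoa2 -0.10, Apob -0.029, Serpina1a -0.12, Serpina1b -0.077, G6pc -0.068, and in sc for Ttr -0.77, Ahsg -0.44, Ambp -0.72, Vtn -0.24, Hpx -1.34, Apoa1 -0.34, Apoa2 -0.68, Apoc3 -0.44, Apoh -0.56, Apob -0.70, Fga -0.64, Fgb -0.60, Fgg -0.48, F2 -0.29, Plg -0.19, Kng1 -0.73, Serpinc1 -0.53, Serpina1a -0.80, Serpina1b -0.72, Serpina1c -0.70, Serpina1d -0.34, Serpina1e -0.24, Itih3 -0.39, Itih4 -0.14, Mup3 -0.90, Mup20 -0.87, Cps1 -0.72, Tat -0.83, Tdo2 -0.63, Hpd -0.11, Bhmt -0.17, G6pc -0.47, Rgn -0.48, Sult2a8 -0.93. None of these negative values was called in limma. In sc Alb had the largest difference of the listed genes, 2.48, so the negative signs there follow in part from its choice as covariate. Hpx in sc ran from -0.535 to 0.40 with 1 array left out.

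The title number as a replicate block left 0 of 35 genes called for the depot difference and for g minus sc in KO (7 at an unadjusted p under 0.05) and in WT, and 34 of 34 slopes. The numbers did not pair the arrays by their data: r ranged from -0.461 to 0.142 over all genes, and 1 of 10 g arrays correlated best with its own number. The genotypes share no number, so a fixed block could not be fitted for KO minus WT; a random replicate block (estimated correlation 0.086, chosen after seeing the data) gave 1 of 35 called in g, 0 in sc (1 at an unadjusted p under 0.05) and 1 instead of 32 over both depots. Genes near the negative control medians on dim arrays limit the differences that could be seen.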

Other observations

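Some genes of hepatocytes that the lists above summarise were bright on single arrays. Cyp3a11, a drug-metabolising cytochrome P450, was 7.41 on sc300KO and 4.98 on g317 KO, against 5.52 on g308 WT and 5.27 on g286 WT. Hsd3b5, a steroid dehydrogenase of male mouse liver, was 7.47 on g317 KO and 6.82 on g320 KO, against 5.23 on sc300KO and 5.01 on g308 WT. These genes were picked after their values were seen and were not tested. One gene, Tmem40, had a called negative slope on Alb (-0.10, adjusted p = 0.0198 in limma).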
